A study of Mus musculus with 6 samples.

Results

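The endoplasmic reticulum-associated degradation (ERAD) machinery was examined through 10 genes chosen by name: Syvn1, Sel1l, Herpud1, Derl1, Derl2, Derl3, Edem1, Edem2, Edem3 and Vcp. Each was read by a single probe set, so the 10 genes stood for 10 of 30702 named genes on the arrays. Whole-transcript microarrays measured RNA of inguinal subcutaneous white fat (WAT) from male C57BL/6 mice aged 2 months, on 6 arrays labelled as biological replicates. The 3 KO-labelled samples came from TFG f/f; Adipoq-ERT2Cre animals, in which a tamoxifen-inducible Cre driven by the adiponectin promoter deletes the floxed gene in adipocytes and leaves it intact in the other cells of the tissue. The 3 WT-labelled samples came from TFG f/f animals without Cre. Mice of both genotypes received intraperitoneal tamoxifen over 5 days and RNA was isolated after a further 2 weeks, so floxed alleles and tamoxifen were common to all arrays. Values are log2 signals as deposited, and means are over n = 3 arrays per group.

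ERAD returns misfolded proteins from the endoplasmic reticulum to the cytosol, where the proteasome destroys them. Mannosidase-like EDEM proteins mark terminally misfolded glycoproteins, the membrane ligase HRD1 (encoded by Syvn1) and its partner SEL1L pass them through the membrane with the help of derlins and HERPUD1, and the ATPase VCP pulls the ubiquitinated chains out. Many of these genes are switched on by the transcription factors ATF6 and spliced XBP1 when unfolded proteins accumulate, and in adipocytes, which secrete adipokines and lipoprotein lipase, SEL1L is known to be needed for the maturation of secreted lipoprotein lipase. TFG organises the sites at which cargo leaves the endoplasmic reticulum, so the comparison addressed which genes of protein disposal differ in fat when Tfg is deleted in fat cells.

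The KO-labelled arrays had lower medians over all probe sets (6.47 to 6.76) than the WT-labelled arrays (6.96 to 7.02), and across all 65956 probe sets the median change stood at -0.37. The mean of 16 measured housekeeping genes went the other way, being 9.88 to 10.66 on KO-labelled and 8.73 to 9.02 on WT-labelled arrays, a difference of 1.31. KO 2 stood apart and correlated with KO 1 and KO 3 at 0.960 and 0.964 over all probe sets, while KO 1 and KO 3 correlated at 0.986 and the WT-labelled arrays with each other at 0.984 to 0.986. Tfg itself read 7.99, 8.21 and 8.03 on KO-labelled and 7.97, 7.94 and 7.91 on WT-labelled arrays. With a change of 0.14 ± 0.11 (SE; limma adjusted p = 0.345), the targeted gene was not lower where the labels say KO; which exons its probe set reads is not known here, and the groups are named by their labels throughout. The mean over 11 adipocyte markers was 11.58 to 12.93 on KO-labelled and 8.45 to 10.02 on WT-labelled arrays. The WT-labelled means of single markers ran from 6.53 (Lep) to 16.52 (Fabp4). In whole fat, a change in the number of cells of a type and a change in RNA per cell cannot be told apart.

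Of the 10 ERAD genes, 4 rose on the KO-labelled arrays and 0 fell by limma at an adjusted p under 0.05. They were Derl1 (6.81-fold), Herpud1 (3.61-fold), Vcp (3.56-fold) and Edem3 (2.01-fold). These folds are ratios of deposited signals, and the WT-labelled levels under them were not shown to be above background. At an unadjusted p under 0.05, 7 genes were higher and 0 lower, against 9.12% of all probe sets higher and 38.8% lower, or 47.9% in all, and 18.3% of protein-coding genes higher and 30.2% lower. Over all probe sets 20.9% were called, 5.32% higher and 15.6% lower, and over 19232 protein-coding genes 10.7% were called higher and 10.2% lower. The balance of calls over all probe sets depended on scaling, with 25.4% of the calls being higher as deposited, 64.6% after quantile normalization and 61.2% with median-centred arrays. Among 15940 protein-coding genes within the range of the members' mean signals, 10.3% were called higher. Of the 16 housekeeping genes 56.2% were called higher, and on 81.2% all KO-labelled values lay above all WT-labelled values. The median change of the 10 genes was 0.60, while that of protein-coding genes was -0.18. On 8 of the 10 genes all KO-labelled values lay above all WT-labelled values, which was the case for 11.1% of all probe sets and 23.3% of protein-coding genes, and on 0 genes did they lie wholly below, the case for 44.9% and 41%. Only Syvn1 and Derl3 overlapped between the groups. The plot of signals by array shows each value.

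**Figure D1:**
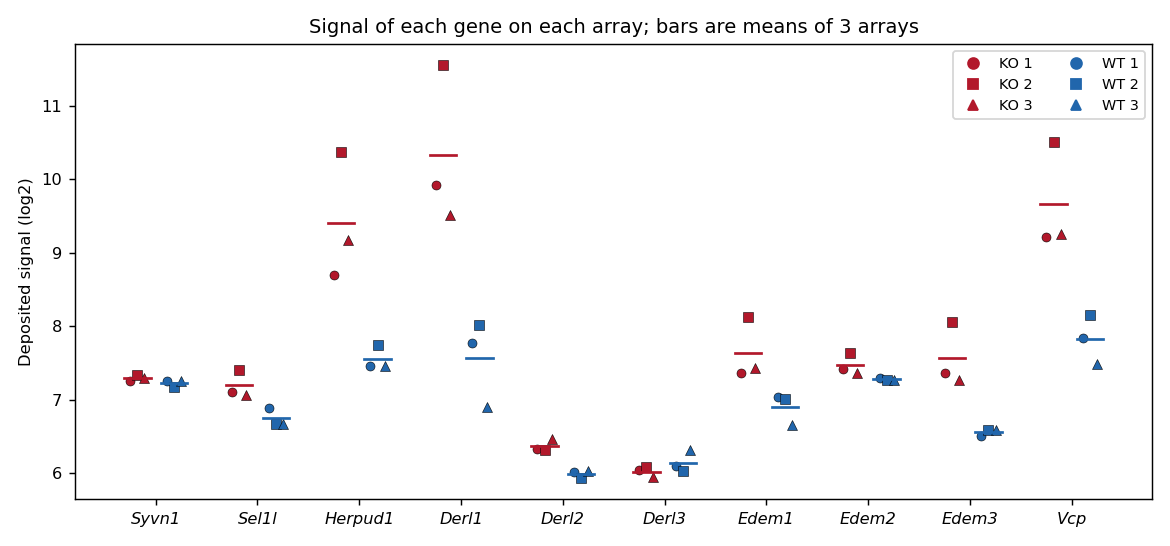
Log2 signal of the 10 ERAD genes on each array, with the 3 KO-labelled arrays (red) left of the 3 WT-labelled arrays (blue) for each gene; horizontal bars are group means and the axis does not start at 0. Derl1, Herpud1 and Vcp show the widest separation, KO 2 (red square) is the highest of the 6 arrays for 8 of the 10 genes, and Syvn1 and Derl3 overlap between the groups.

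The upstream sequences of the members show where known stress elements lie relative to these differences. RefSeq windows on GRCm38.p6, from 250 bases before to 50 bases after a transcription start, matched 9 of the 10 genes by symbol, with Derl1 not matched. They were searched on both strands for the ER stress response element (ERSE, which is CCAAT and CCACG with any 9 bases between them), its variant ERSE-II (ATTGG and CCACG with any 1 base between them) and the unfolded protein response element (UPRE, TGACGTGG), which are bound by ATF6, XBP1 or both. The end of the ERSE and of ERSE-II, read on the other strand, shares its letters with the end of the UPRE, so a match of one can overlap a match of another. Herpud1 held an ERSE-II at -52 to -42 from its start and Vcp a UPRE at -114 to -107. Syvn1 held an ERSE at -44 to -26, and Derl3 held an ERSE on the opposite strand at -156 to -138. The 250 bases before the start of these 4 genes are shown because they hold the matches, which are in capitals. They lie at chr8:94386179-94386428 (plus strand), chr4:43000508-43000757 (minus strand), chr19:6046326-6046575 (plus strand) and chr10:75893148-75893397 (plus strand), and each is written 5′ to 3′ in the direction of the gene.
Herpud1: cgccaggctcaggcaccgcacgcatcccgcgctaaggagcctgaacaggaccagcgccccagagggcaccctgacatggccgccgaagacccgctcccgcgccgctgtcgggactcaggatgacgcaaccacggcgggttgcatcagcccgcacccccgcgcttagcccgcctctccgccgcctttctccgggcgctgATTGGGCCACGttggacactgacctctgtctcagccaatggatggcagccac
Vcp: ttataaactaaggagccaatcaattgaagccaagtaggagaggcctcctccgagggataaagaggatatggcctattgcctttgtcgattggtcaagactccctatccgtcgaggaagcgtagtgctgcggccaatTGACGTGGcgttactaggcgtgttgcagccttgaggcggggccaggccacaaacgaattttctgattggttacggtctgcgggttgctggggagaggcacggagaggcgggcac
Syvn1: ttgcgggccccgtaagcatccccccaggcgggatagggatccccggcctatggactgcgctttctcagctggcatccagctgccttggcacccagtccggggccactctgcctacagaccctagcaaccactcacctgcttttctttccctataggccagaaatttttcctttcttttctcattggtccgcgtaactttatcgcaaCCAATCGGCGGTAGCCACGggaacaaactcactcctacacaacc
Derl3: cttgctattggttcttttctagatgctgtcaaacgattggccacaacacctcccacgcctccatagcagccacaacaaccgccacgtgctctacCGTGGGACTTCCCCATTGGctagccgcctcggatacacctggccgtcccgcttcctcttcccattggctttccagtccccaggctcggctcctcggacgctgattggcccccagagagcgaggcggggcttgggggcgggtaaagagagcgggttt

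Of these genes Herpud1 and Vcp rose, while Syvn1 and Derl3, which hold the complete ERSE, did not pass the test. Edem3, the other called gene with a window, held none of the 3 motifs in it, as did Sel1l, Derl2, Edem1 and Edem2. Among all 32851 windows, 0.119% held an ERSE, 0.0365% an ERSE-II and 0.676% a UPRE. Across the arrays, 171 protein-coding genes had a window with any of the motifs, and 15.2% of them were called higher and 7.6% lower, against 10.8% and 10.3% of 15418 protein-coding genes whose windows had none. The 29 genes with an ERSE were called in both directions, 6 higher and 5 lower. These shares describe letters in a window and were not tested.

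Neither the ligase gene nor that of its partner SEL1L passed the test on the deposited scale. Syvn1, which encodes the ubiquitin ligase HRD1, read 7.25, 7.34 and 7.30 on KO-labelled arrays and 7.25, 7.17 and 7.26 on WT-labelled arrays. All 6 values lay within a narrow band, and the change of 0.07 ± 0.10 (SE) did not pass (adjusted p = 0.587). Sel1l, whose product stabilises HRD1 and receives substrates in the lumen, read 7.11, 7.41 and 7.06 against 6.89, 6.67 and 6.67, in KO-labelled and WT-labelled order. Every KO-labelled array was above every WT-labelled array, but the change of 0.45 ± 0.14 (SE) missed the threshold (adjusted p = 0.0639). It was called with median-centred arrays, at 0.78 (adjusted p = 0.0472), and when only single-symbol probe sets were fitted (adjusted p = 0.0495). Within arrays, Syvn1 minus Sel1l was 0.10 ± 0.16 on KO-labelled and 0.48 ± 0.12 on WT-labelled arrays (SD), a difference of -0.38 ± 0.11 (SE) with no overlap between the groups.

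Herpud1 encodes a stress-inducible membrane protein with a ubiquitin-like domain that joins the HRD1 complex. Its signal was 8.69, 10.37 and 9.17 on KO-labelled arrays and 7.46, 7.75 and 7.46 on WT-labelled arrays. The WT-labelled values were tightly grouped and the KO-labelled values widely spread, with KO 2 the highest. The mean was 9.41 ± 0.87 on KO-labelled and 7.56 ± 0.17 on WT-labelled arrays (SD), a rise of 1.85 ± 0.42 (SE; limma adjusted p = 0.0400). Without KO 2 the rise was 1.37, or 2.59-fold, and it was called (adjusted p = 0.0236).

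The derlins, membrane proteins related to rhomboid proteases that form part of the passage to the cytosol, gave 1 called gene of 3. The share called higher was 5.32% over all probe sets and 10.7% over protein-coding genes. Derl1 read 9.92, 11.56 and 9.51 on KO-labelled arrays and 7.77, 8.02 and 6.90 on WT-labelled arrays. The groups were separated by more than the range within WT-labelled arrays, and both groups were spread. Its mean was 10.33 ± 1.08 on KO-labelled and 7.56 ± 0.59 on WT-labelled arrays (SD), a rise of 2.77 ± 0.59 (SE; adjusted p = 0.0378). That change lay at the 99.3rd percentile of protein-coding genes. KO 2 set a large part of the size, and without it the rise was 4.44-fold (adjusted p = 0.0320) in place of 6.81-fold.

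Derl2 read 6.33, 6.31 and 6.47 on KO-labelled arrays and 6.02, 5.93 and 6.03 on WT-labelled arrays. Here KO 2 was the lowest of its group, the groups did not overlap, and the change of 0.38 ± 0.11 (SE) fell just short of a call (adjusted p = 0.0530). Derl3, which in other tissues is typical of secretory cells, read 6.04, 6.08 and 5.94 against 6.09, 6.03 and 6.31, in KO-labelled and WT-labelled order. The groups overlapped, and the change of -0.12 ± 0.12 (SE) did not pass (adjusted p = 0.433); its sign was positive with quantile-normalized (0.24) or median-centred (0.21) arrays. Of 8 markers of B and plasma cells, which are rich in secretory machinery, 0 rose and 2 fell, where 15.6% of all probe sets were called lower. The mean of these markers was 6.08 to 6.46 on KO-labelled and 6.69 to 6.72 on WT-labelled arrays. These means lay under the median of the olfactory receptor genes in both groups (6.67 on KO-labelled and 7.47 on WT-labelled arrays). The median change of the B and plasma cell markers was -0.34, and that of the olfactory receptor genes was -0.82. The part of B and plasma cells in the Derl3 signal was not tested.

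The derlin pairs were also compared within each array, which removes a shift added equally to every gene of an array. Derl1 minus Derl2 was 3.59, 5.25 and 3.04 on KO-labelled arrays and 1.75, 2.09 and 0.87 on WT-labelled arrays, a difference of 2.39 ± 0.76 (SE). Derl1 minus Derl3 differed by 2.89 ± 0.73 (SE), and Derl2 minus Derl3 by 0.50 ± 0.11 (SE). In all 3 pairs the groups did not overlap, but Derl2 and Derl3 lay below the median of the olfactory receptor genes, a gauge of dim signal, in both groups (6.67 on KO-labelled and 7.47 on WT-labelled arrays), so whether their probe sets could register a change was not tested. Each gave an exact 2-sided permutation p of 0.1, the smallest that 3 against 3 arrays allow, and 0.117 after Benjamini-Hochberg adjustment over the 7 pairs compared. A shift that differs with signal level is not removed in any of the 7 pairs. The olfactory receptor genes had a median change of -0.82, while the housekeeping mean changed by 1.31. Pairs of other genes were not compared, so how often their groups do not overlap is not known here.

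**Figure D2:**
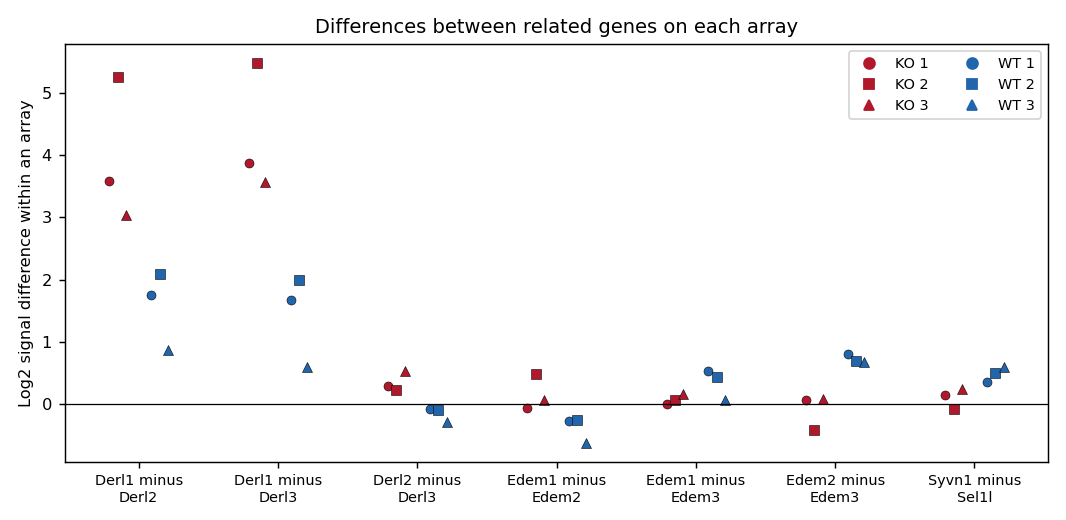
Difference in log2 signal between related ERAD genes within each array, with KO-labelled arrays (red) left of WT-labelled arrays (blue). The KO-labelled values of Derl1 minus Derl2 lie between 3.04 and 5.25, above all WT-labelled values, and Edem1 minus Edem3 is the only pair whose groups overlap.

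The EDEM genes encode lectin-like mannosidases of the lumen that mark glycoproteins for disposal. Edem3 read 7.36, 8.06 and 7.27 on KO-labelled arrays and 6.50, 6.58 and 6.59 on WT-labelled arrays. The WT-labelled values differed by less than 0.1, and all KO-labelled values lay well above them, a rise of 1.01 ± 0.23 (SE; adjusted p = 0.0392). Without KO 2 the rise was 0.76, with an adjusted p of 0.0210. Edem1 read 7.36, 8.13 and 7.43 on KO-labelled arrays and 7.03, 7.01 and 6.65 on WT-labelled arrays. It too was higher on every KO-labelled array, but with wider spread in both groups, and its change of 0.74 ± 0.24 (SE) did not pass (adjusted p = 0.0663). Edem2 read 7.42, 7.64 and 7.36 against 7.30, 7.27 and 7.27, in KO-labelled and WT-labelled order. Its change was 0.19 ± 0.12 (SE, adjusted p = 0.226) as deposited and -1.12 relative to the housekeeping mean, where Edem1 was at -0.57 and Edem3 at -0.31.

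Within arrays, Edem2 minus Edem3 was -0.09 ± 0.29 on KO-labelled and 0.72 ± 0.07 on WT-labelled arrays (SD), a difference of -0.81 ± 0.17 (SE). Edem1 minus Edem2 differed by 0.55 ± 0.20 (SE). For both pairs the groups did not overlap (exact permutation p = 0.1, 0.117 after adjustment). Edem1 minus Edem3 overlapped between the groups and differed by -0.26 ± 0.15 (SE, exact permutation p = 0.3).

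Vcp encodes the hexameric ATPase, also called p97, that extracts ubiquitinated substrates and serves many other pathways of the cell. Its signal was 9.22, 10.51 and 9.25 on KO-labelled arrays and 7.84, 8.15 and 7.49 on WT-labelled arrays. The lowest KO-labelled value stood above the highest WT-labelled value by more than the range of the WT-labelled arrays, with a rise of 1.83 ± 0.39 (SE; adjusted p = 0.0379). Without KO 2 the rise was 1.41 (adjusted p = 0.0258). A separate probe set named for the pseudogene Vcp-rs read 9.32, 10.06 and 9.02 on KO-labelled arrays and 7.38, 8.18 and 7.47 on WT-labelled arrays, a change of 1.79 ± 0.34 (SE; adjusted p = 0.0359). Whether the probes separate the gene from its near copy was not tested, so the Vcp value is uncertain to that extent.

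Relative to the housekeeping mean of each array, the ERAD genes fell into separate sets. Derl1 was higher by 1.46 ± 0.48, Herpud1 by 0.54 ± 0.26 and Vcp by 0.52 ± 0.21 on KO-labelled arrays (SE), with no overlap between the groups. The other 7 genes lay below on every KO-labelled array, with Edem3 nearest to 0 at -0.31 ± 0.10 and Derl3 farthest at -1.44 ± 0.28 (SE). On this scale 1.27% of all probe sets and 2.38% of protein-coding genes lay wholly above, and 94.4% and 92.5% wholly below. The direction of 6 ERAD genes, Syvn1, Sel1l, Derl2, Edem1, Edem2 and Edem3, depended on the scale, being positive as deposited and negative relative to the housekeeping genes. Each exact permutation p on this scale was 0.1, the smallest possible, and 1 of the housekeeping genes, Canx, encodes an ER lectin chaperone. Without Canx the change of the housekeeping mean was 1.24. The 16 housekeeping genes were not steady as deposited, with changes from -0.28 (Tfrc) to 2.74 (Atp5b), and 9 were called higher and 0 lower. Values on this scale therefore depend on which genes were listed.

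**Figure D3:**
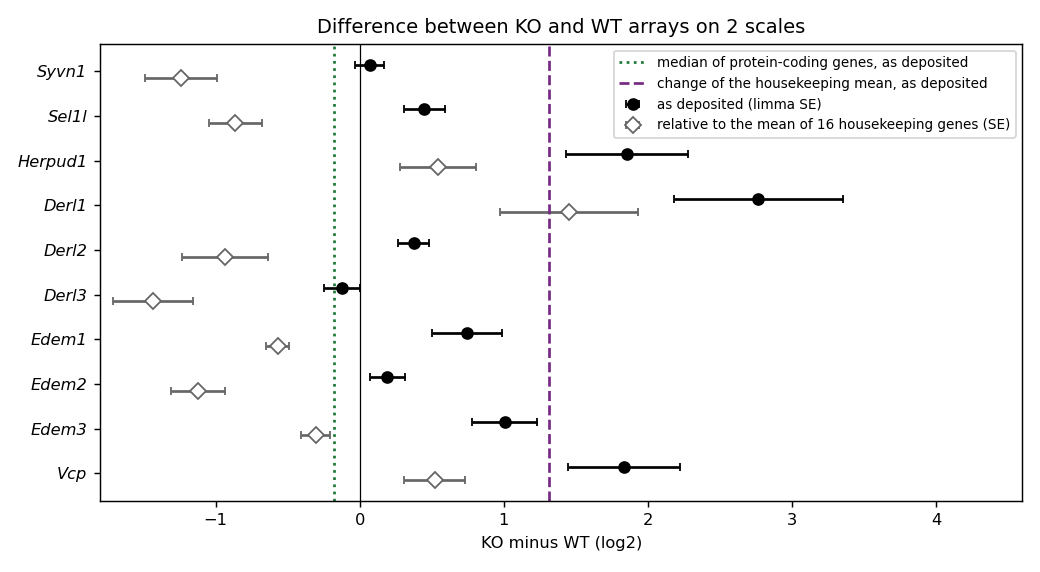
KO minus WT difference of each ERAD gene in log2 units, as deposited (filled circles, limma SE) and relative to the mean of 16 housekeeping genes on the same array (open diamonds, SE). Derl1, Herpud1 and Vcp are above 0 on both scales, the dashed line marks the change of the housekeeping mean (1.31) and the dotted line the median change of protein-coding genes (-0.18).

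Signal level limits the reading of the dim members. The 1082 olfactory receptor genes, used as a gauge of dim signal and chosen after their values had been seen, had a median of 6.67 on KO-labelled and 7.47 on WT-labelled arrays. The KO-labelled means of Derl1, Herpud1 and Vcp lay above the 95th percentile of those genes (8.68), and those of the other 7 did not. On the WT-labelled arrays all 10 means lay under the 95th percentile (9.84), and 7 lay under the median. No detection calls were used. Derl2 and Derl3 were the dimmest members.

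Markers of other cell types also differed between arrays, in both directions. Skeletal muscle markers had a mean over 9 genes of 8.98, 10.77 and 6.88 on KO 1, KO 2 and KO 3, and of 7.01 to 7.03 on WT-labelled arrays, with 0 called. KO 2, the highest array in muscle markers, was also the highest of the 6 arrays for 8 of the 10 ERAD genes. On KO 3, muscle markers were at the level of the WT-labelled arrays. Derl1 (9.51), Herpud1 (9.17), Vcp (9.25) and Edem3 (7.27) read above every WT-labelled value on that array. All had been called higher with no overlap between the groups, so this order on KO 3 followed from their choice. Whether muscle content had a part in their rise was not tested. Of 11 adipocyte markers 8 rose and 0 fell, with a median change of 2.93, and of 9 endothelial markers 7 rose and 0 fell, with a mean of 8.44 to 9.09 on KO-labelled and 7.05 to 7.29 on WT-labelled arrays. Of 9 macrophage markers 2 rose and 0 fell, and of 8 progenitor and fibroblast markers 1 rose and 0 fell. Of 6 T cell markers 2 fell and 0 rose, and of 6 epithelial markers 1 fell and 0 rose. Over all probe sets 5.32% were called higher and 15.6% lower, and over protein-coding genes 10.7% and 10.2%. On WT-labelled arrays the T cell means (6.80 to 6.90) and epithelial means (6.64 to 6.91) lay under the olfactory receptor median of 7.47. The WT-labelled endothelial means (7.05 to 7.29) and muscle means (7.01 to 7.03) lay under it too. The median changes of T cell and epithelial markers were -0.55 and -0.34, and that of the olfactory receptor genes was -0.82. The part of these markers in the ERAD result was not tested.

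The wider pathway was read through 80 further ERAD genes listed by role, of which 74 were measured. Of these 26 rose and 0 fell, a share of 35.1% higher against the 5.32% of all probe sets and 10.7% of protein-coding genes given above. The share was 56.2% for the 16 housekeeping genes, so a high share was not particular to ERAD genes. Among the 74 wider genes the counts were also read without adjustment. At an unadjusted p under 0.05, 41 were higher and 2 lower. Of all probe sets 9.12% were higher and 38.8% lower, and of protein-coding genes 18.3% and 30.2%. The median change was 0.42 as deposited and -0.90 relative to the housekeeping mean, on which scale 3 genes lay wholly above and 60 wholly below. The roles differed in how many members were called, as the plot of changes by role shows, without a test between roles.

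**Figure D4:**
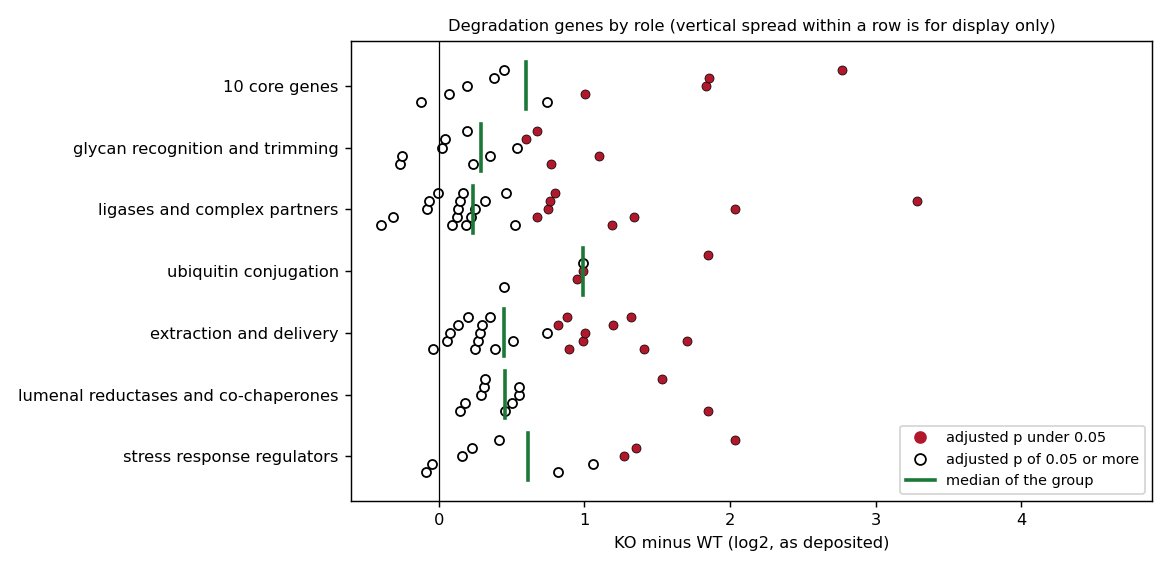
KO minus WT change (log2, as deposited) of every measured ERAD gene by role and of the stress response regulators, with each point a gene and a green bar at each median. Filled points passed limma at an adjusted p under 0.05, and all of them lie above 0.

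Glycan recognition and trimming genes rose in 4 of 12 cases, with a median change of 0.29. Beside this and the role counts below, 5.32% of all probe sets, 10.7% of protein-coding genes and 56.2% of housekeeping genes were called higher. The largest change in this role was in Erlec1, which encodes a lectin that delivers glycoproteins to the HRD1 complex, at 1.10 ± 0.28 (SE; adjusted p = 0.0455). The lowest was Engase, a cytosolic glycosidase gene, at -0.26 without passing (adjusted p = 0.130).

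Among ligases and complex partners 8 of 24 rose, with a median of 0.23. Insig1, whose product links sterol-regulated enzymes to membrane ligases, read 10.75, 11.28 and 10.73 on KO-labelled arrays and 7.43, 7.69 and 7.79 on WT-labelled arrays. It stood apart from the rest of the list, with a rise of 3.28 ± 0.20 (SE; adjusted p = 0.0305). Selenos, which encodes the selenoprotein that tethers VCP to derlins, read 8.60, 9.64 and 8.83 on KO-labelled arrays and 7.05, 6.83 and 7.08 on WT-labelled arrays. The lowest KO-labelled value was far above the highest WT-labelled one, and the rise was 2.04 ± 0.28 (SE; adjusted p = 0.0354). Aup1, which encodes an ER and lipid droplet protein that recruits a ubiquitin-conjugating enzyme, rose by 1.34 ± 0.26 (SE; adjusted p = 0.0360). Svip, whose product is a VCP-binding inhibitor of ERAD, had the lowest change of the whole list, with 7.48, 7.45 and 7.35 on KO-labelled and 7.64, 7.97 and 7.87 on WT-labelled arrays. Its values did not overlap, but the change of -0.40 ± 0.13 (SE) did not pass (adjusted p = 0.0647).

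Of 5 measured ubiquitin conjugation genes 3 rose, with a median of 0.99. Ube2k, which encodes a ubiquitin-conjugating enzyme, rose by 1.85 ± 0.41 (SE; adjusted p = 0.0391), and Ube2g1, the lowest of this role, was at 0.45 without passing (adjusted p = 0.0693). Of 22 extraction and delivery genes 9 rose, with a median of 0.45. The substrate-holding co-chaperone gene Sgta rose by 1.70 ± 0.38 (SE; adjusted p = 0.0391) and Rad23b, which encodes a shuttle to the proteasome, by 1.41 ± 0.31 (SE; adjusted p = 0.0389). The heterodimeric VCP cofactor encoded by Ufd1 and Nploc4 rose in both parts, by 0.90 ± 0.20 and 1.32 ± 0.32 (SE; adjusted p = 0.0391 and 0.0421), Nploc4 being named after its value had been seen. Usp13, a deubiquitinase gene, was the lowest of this role at -0.04 (adjusted p = 0.841).

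Of 11 lumenal reductase and co-chaperone genes 2 rose, both encoding DnaJ partners of the chaperone BiP. Dnajb9 rose by 1.85 ± 0.28 and Dnajc3 by 1.53 ± 0.37 (SE; adjusted p = 0.0354 and 0.0423). The WT-labelled mean of Dnajc3 was 5.90, under the olfactory receptor median of 7.47. The lowest of this role was Txndc11, at 0.15 (adjusted p = 0.314). Among the 74 genes, the profiles over the 6 arrays most like the mean profile of the 10 ERAD genes were those of Ufd1, Ube4a and Faf1, with root mean square differences of 0.056, 0.080 and 0.092 after centring each gene on its own mean. Ube4a, which encodes a ubiquitin chain elongation factor, rose by 0.99 and Faf1, which encodes a VCP-binding protein, by 0.88 (adjusted p = 0.0462 and 0.0356). The mean profile they were matched to was itself higher on every KO-labelled array than on any WT-labelled array. A rise of Ufd1, Ube4a and Faf1 therefore followed from their choice, and their adjusted p adds no separate support. The WT-labelled means of Ufd1, Ube4a and Faf1 (7.04, 6.76 and 7.36) also lay under the olfactory receptor median. The rest of the wider list was not set against that gauge.

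Regulators of the unfolded protein response, which control many ERAD genes, were listed together with Nfe2l1, which activates proteasome genes. Of 11 listed 10 were read and 3 rose and 0 fell, against 5.32% of all probe sets and 10.7% of protein-coding genes called higher. At an unadjusted p under 0.05, 5 were higher and 0 lower, where 9.12% of all probe sets were higher and 38.8% lower. For protein-coding genes these shares were 18.3% and 30.2%. Relative to the housekeeping mean the median change of the regulators was -0.70, with 1 (Nfe2l1) wholly above, 6 wholly below and 3 overlapping. Nfe2l1, which encodes an ER-anchored transcription factor that is itself a substrate of HRD1 and VCP and activates proteasome genes, read 10.43, 11.42 and 10.55 on KO-labelled arrays and 8.76, 8.98 and 8.55 on WT-labelled arrays. The groups were far apart, with a rise of 2.04 ± 0.29 (SE; adjusted p = 0.0354). Hspa5, the gene of the chaperone BiP, rose by 1.35 (adjusted p = 0.0370) and Atf4, the transcription factor gene of the PERK branch, by 1.27 (adjusted p = 0.0354). The WT-labelled means of Hspa5 (7.25) and Atf4 (6.09) lay under the olfactory receptor median of 7.47.

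The genes of the 2 factors that bind the promoter elements above did not pass, and the sign of their change depended on the scale. Atf6 read 7.87, 8.76 and 7.68 on KO-labelled arrays and 7.19, 6.87 and 7.07 on WT-labelled arrays, a change of 1.06 ± 0.30 (SE; adjusted p = 0.0512). Xbp1 read 7.91, 8.76 and 7.94 on KO-labelled arrays and 7.46, 7.26 and 7.43 on WT-labelled arrays, a change of 0.82 ± 0.25 (SE; adjusted p = 0.0587). In both, KO 2 was the highest array and no KO-labelled value fell within the WT-labelled range. Without KO 2 the changes were 0.73 and 0.54, and both passed (adjusted p = 0.0369 and 0.0388), so that 5 regulators were called. Relative to the housekeeping mean, Atf6 was at -0.25 with overlapping groups and Xbp1 at -0.49 with all KO-labelled values below. The sensor genes Ern1 and Eif2ak3 were at 0.16 and -0.09 (adjusted p = 0.316 and 0.533), the ATF6 paralogue gene Atf6b at -0.05 (adjusted p = 0.767), Ddit3 at 0.41 (adjusted p = 0.111) and the ATF6-cleaving protease gene Mbtps1 at 0.23 (adjusted p = 0.205). The signs of Eif2ak3 and Atf6b turned positive on quantile-normalized and on median-centred arrays. A gene-level signal does not separate spliced from unspliced Xbp1.

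Several arrays decided the calls. Leaving out KO 3, limma called 0 of the 10 ERAD genes, with adjusted p of 0.0624 to 0.0669 for the 4 that had passed. Leaving out WT 1, WT 2 or WT 3 also gave 0, with adjusted p of 0.0997 to 0.104, 0.0828 to 0.0909 and 0.116 to 0.120. At an unadjusted p under 0.05, between 5 and 7 ERAD genes were higher in these 4 settings and 0 lower. Without KO 1 or KO 2, Derl1, Edem3, Herpud1 and Vcp remained called. Where no ERAD gene passed, no other probe set on the arrays did either, with 28697 at an unadjusted p under 0.05 without KO 3 and 23757, 25102 and 21579 without WT 1, WT 2 and WT 3.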

How the data were processed

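The deposited table holds 1 log2 signal per probe set and array, for 65956 probe sets on 6 arrays. Per the labels' protocols, RNA was labelled with biotin by the GeneChip WT Pico method. Transcriptome Analysis Console is the tool listed, per the submitters' processing notes. How background, normalization and summary were handled: not given in the sources used here. The log2 scale of the deposited values was checked on the table, where they run from 2.81 to 19.93.

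GEO's array annotation, updated through the RefSeq table of GRCm38.p6, gave 31258 probe sets exactly 1 gene symbol, 1492 several and 33206 none. Where several probe sets carried a gene, the one of highest average signal was taken. No genome build of the authors was used. KO-labelled arrays were compared with WT-labelled arrays by limma 3.58.1 in R 4.3.3 (lmFit and eBayes without trend, genotype as the only term) over all probe sets, with Benjamini-Hochberg adjustment and a call at an adjusted p under 0.05. Single values relative to housekeeping genes and family pairs were compared by exact 2-sided permutation in scipy 1.17.1. The procedure was tested on simulated arrays. Python 3.11.15, numpy 2.4.6, pandas 2.3.3, statmod 1.5.0 and matplotlib 3.10.9 were also used.

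The 10 genes and the lists were chosen with earlier results of these data known. Named were the 10 genes, Tfg, in each direction up to 8 called genes of the wider list with the largest change, the 3 nearest profiles, all regulators, and the lowest and highest of a list where given. Alternatives were quantile normalization, median centring, 2 filters on dim probe sets (mean under 6.21 or 6.83), trend, trend with robust, array weights, a block for replicate number, a fit on single-symbol probe sets, averaging all probe sets of a gene, other thresholds, and leaving out each array. The 6 wider genes without a single-symbol probe set were not analysed here. The number of arrays limits the precision. Labels say the replicates are biological, and no scan date was used, so no batch was examined.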

Additional observations from a re-analysis of the deposited data

How the results depend on the processing

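Of the 10 ERAD genes, 4 to 6 were called higher under quantile normalization (5), median centring (6), both filters on dim probe sets, trend (5), trend with robust, array weights (6), the replicate block (4), probe sets with 1 symbol (6) and averaging all probe sets of a gene, and Derl1, Edem3, Herpud1 and Vcp were among the called in each of these. The filters left out Derl2 and Derl3. Calls over all probe sets moved between settings too. As deposited 3509 of 65956 were called higher, against 4032 after quantile normalization, 5146 with median centring and 4977 with array weights. Trend gave 3380 and the replicate block 2960, while single-symbol probe sets gave 3647 of 31258. The counts of ERAD genes were not tested against these. At an adjusted p under 0.1 the count was 7, and under 0.01 it was 0. No share over all probe sets was taken at 0.1, and the lowest limma adjusted p of any probe set was 0.0305. Leaving out 1 array gave counts from 0 to 4 for the ERAD genes, 0 to 25 for the 74 wider genes and 0 to 5 for the 10 regulators, because 0 probe sets passed without KO 3, WT 1, WT 2 or WT 3. For the wider genes the count was 26, and it was 17 with the replicate block and 0 at an adjusted p under 0.01. The number called lower was 0, but 1 with array weights, 1 with single-symbol probe sets and 2 at an adjusted p under 0.1. For the regulators the count was 3, and it was 5 with array weights, with single-symbol probe sets and at an adjusted p under 0.1, and 0 under 0.01. Signs turned for Derl3 (0.24 after quantile normalization, 0.21 after centring), Atf6b (0.29, 0.28, and from -0.135 to 0.01 when 1 array was left out, 0.01 being without KO 2) and Eif2ak3 (0.21, 0.24). The cause of these changes was not tested. Same-numbered arrays deviated together at correlations of 0.002, 0.205 and 0.139, and KO 1 correlated best with WT 3, so the numbers were not taken as pairs. Array weights gave KO 2 a weight of 0.22. Relative to housekeeping genes, 3 ERAD genes lay wholly above and 7 wholly below, with 2 and 7 after quantile normalization and no change when any 1 array was left out. Tfg did not pass in any alternative. No detection calls were used, so signal over background was not tested.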
